A study of Mus musculus with 8 samples.

Results

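Most of the genes described here encode proteins that carry ions across the sperm membrane apart from CatSper, the sperm calcium channel. Lrrc52 encodes an auxiliary channel subunit and Tmem249 a protein that associates with CatSper. All were chosen by name, as 10 genes for potassium and proton channels, sodium-proton exchangers, ion pumps, anion transporters and 1 CatSper-associated protein. The deposited table held 8 of them among its 17127 genes: Kcnu1, Lrrc52, Slc9c1, Slc9b1, Atp1a4, Atp2b4, Slc26a8 and Tmem249. Hvcn1, which encodes a voltage-gated proton channel, and Slc26a3, which encodes a chloride-bicarbonate exchanger, had no row and were not analysed here. All 8 passed the filter on low values.

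Whole adult testes were compared between 4 wild-type mice and 3 Iqch mutant mice, 1 library per mouse, at 4 months of age. The mutants were homozygous (Iqch-/-) for small CRISPR-Cas9 deletions made in B6CBAF1 (C57BL/6xCBA) zygotes. The study made more than 1 mutant line and names the Iqchmu7 line for its phenotyping and for its RNA-seq coverage of Iqch, while the labels name no line. Wild-type mice 1 to 4 and mutants 1, 2 and 4 had values, and mutant 3 of the 8 listed samples was not analysed here. The paper left 1 mutant sample out of its analysis as an outlier, and its text does not say which. The table gave CPM, the reads of a gene scaled to 1000000 assigned reads, with 32064384 to 37551057 reads behind each library, as estimated from the steps between CPM values. Iqch itself stood at 217, 206, 216 and 193 CPM in the wild-type libraries and at 67.7, 64.8 and 69.2 CPM in the mutants (log2 fold change -1.63, SE 0.05, limma FDR 1.9e-10).

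A mammalian sperm sets its membrane potential and internal pH through a small set of transporters, most of them made in spermatids and carried to the flagellum. Sodium leaves through the sperm form of the Na,K-ATPase, potassium leaves through the SLO3 channel once the cytoplasm turns alkaline, and protons leave through exchangers of the SLC9 family. Calcium that enters through CatSper is pumped out again by a plasma membrane calcium pump, and bicarbonate and chloride move through SLC26 proteins.

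The promoter sequences of 4 genes are shown. These genes form pairs whose balance differed between the groups, as did that of Slc9c1 and Slc9b1, whose sequences are not shown. The 4 sequences are those of the potassium channel Kcnu1 with its partner Lrrc52, and of the pumps Atp1a4 and Atp2b4. The pumps moved in opposite directions on the deposited scale. Each sequence is the 250 bases before the start of the canonical transcript, read 5′ to 3′ on the gene's own strand from the GRCm39 genome with the GENCODE annotation, at chr8:26339401-26339650 (+), chr1:167294350-167294599 (-), chr1:172085982-172086231 (-) and chr1:133728924-133729173 (-) in this order. Capitals mark a match to GTTGCC, a core of the site read by RFX factors.
Kcnu1: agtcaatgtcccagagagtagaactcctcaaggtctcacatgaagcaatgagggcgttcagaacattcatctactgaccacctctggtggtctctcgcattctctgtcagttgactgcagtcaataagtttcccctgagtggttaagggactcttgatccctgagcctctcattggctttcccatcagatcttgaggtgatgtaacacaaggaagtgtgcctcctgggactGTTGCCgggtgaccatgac
Lrrc52: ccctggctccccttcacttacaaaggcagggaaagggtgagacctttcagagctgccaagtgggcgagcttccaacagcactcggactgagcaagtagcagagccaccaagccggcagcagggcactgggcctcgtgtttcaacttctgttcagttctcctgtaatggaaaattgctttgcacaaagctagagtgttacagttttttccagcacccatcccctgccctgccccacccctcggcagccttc
Atp1a4: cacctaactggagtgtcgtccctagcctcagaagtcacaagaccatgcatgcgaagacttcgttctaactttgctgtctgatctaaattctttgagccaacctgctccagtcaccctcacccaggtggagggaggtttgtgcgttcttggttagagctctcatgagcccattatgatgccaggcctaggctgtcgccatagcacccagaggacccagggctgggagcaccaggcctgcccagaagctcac
Atp2b4: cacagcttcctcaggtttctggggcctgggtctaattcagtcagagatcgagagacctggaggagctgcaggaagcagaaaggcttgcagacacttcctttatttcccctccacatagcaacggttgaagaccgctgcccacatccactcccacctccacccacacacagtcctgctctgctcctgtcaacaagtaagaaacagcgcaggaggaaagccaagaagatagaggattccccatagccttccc

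Motifs of factors known from spermatids and ciliated cells were searched on both strands of these windows: the full cAMP response element TGACGTCA, its half-site TGACG, which the full element contains, and GTTGCC. Among all 21770 promoters of this length, 1.69% held the full element, 18.0% the half-site and 9.45% the GTTGCC letters. Of the 8 genes, 0 held the full element, 0 held the half-site and 1 held GTTGCC. That match was in Kcnu1, 19 to 14 bases before the start. A match is a run of letters and not a measured binding site, and at these background shares the counts are no result about the 8 genes.

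In Iqch mutant testes, transcripts of the sperm Na,K-ATPase subunit Atp1a4 and of the sodium-proton exchanger Slc9b1 were lower, transcripts of the calcium pump Atp2b4 were higher, and the other 5 genes did not pass the test. A gene was called when limma, fitted across all 17126 genes that passed the filter, gave a false discovery rate (FDR) below 0.01. On the deposited CPM, 2 of the 8 genes were called lower, against 14.2% of all genes tested, and 1 was called higher, against 36.3% of all genes. Libraries of the groups did not overlap for 5 of the 8 genes, against 62.3% of all genes. The median log2 fold change of the 8 genes was -0.07, beside 0.12 over all genes tested.

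The median of all genes lay above 0 on the deposited scale, so each change was also computed after dividing the libraries by median-of-ratios factors, which moved that median by 0.13 to -0.013. On this second scale 4 genes were called lower (Lrrc52, Slc9b1, Atp1a4 and Slc26a8), against 25.1% of all genes, and 0 were called higher, against 27.0% of all genes. The call of Atp2b4 therefore held on the deposited scale alone, and those of Lrrc52 and Slc26a8 on the rescaled values alone. Atp1a4 and Slc9b1 were called lower on both.

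**Figure D1:**
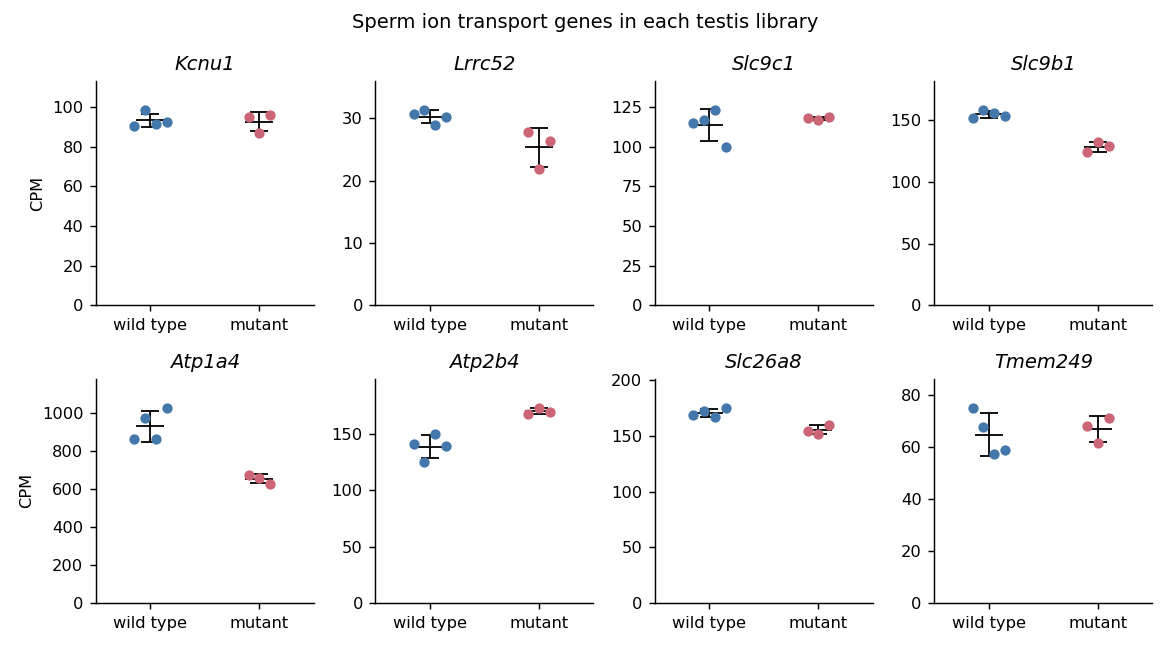
CPM of each of the 8 genes (vertical axes, linear and starting at 0) in wild-type (blue, n = 4) and mutant (red, n = 3) testes, 1 point per library, with the mean and SD in black. The mutant points of Atp1a4, Slc9b1, Slc26a8 and Lrrc52 lie below every wild-type point, those of Atp2b4 lie above, and those of Kcnu1, Slc9c1 and Tmem249 overlap with the wild-type points.

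The potassium channel was examined first. Kcnu1 (ENSMUSG00000031576, chr8:26339651-26427967, plus strand, 27 exons) encodes SLO3, the pore of the alkalinisation-activated potassium channel of sperm. It stood at 90.8, 98.5, 91.7 and 92.4 CPM in wild-type testes and at 95.0, 87.1 and 96.0 CPM in the mutants. The groups overlapped, and the log2 fold change was -0.01 (SE 0.05, 95% interval -0.12 to 0.10, FDR 0.866). After rescaling it was -0.15 (interval -0.26 to -0.03, FDR 0.0266), which did not reach the threshold.

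Lrrc52 (ENSMUSG00000040485, chr1:167271858-167294349, minus strand, 2 exons) encodes the leucine-rich repeat protein that joins SLO3 as its auxiliary subunit and shifts its gating. It was read at 30.7, 31.3, 28.9 and 30.3 CPM in wild-type testes and at 27.8, 21.9 and 26.3 CPM in the mutants. All 3 mutants were below all wild-type libraries, mutant 2 furthest. The log2 fold change of -0.26 (SE 0.08, interval -0.44 to -0.09) had an FDR of 0.011 and so missed the threshold by little. Without mutant 1 it was -0.34 with an FDR of 0.00432, and without mutant 2 it was -0.16 with an FDR of 0.0573. After rescaling it was -0.40 with an FDR of 9.9e-04. Lrrc52 was also the gene with the fewest reads of the 8, at least 701 per library, which gives a counting error of at most 3.78%, against a coefficient of variation of 12.3% among the mutants.

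The pore and its partner did not keep their ratio. Within a library, log2(CPM + 0.1) of Kcnu1 exceeded that of Lrrc52 by 1.56, 1.65, 1.66 and 1.60 in wild-type testes and by 1.77, 1.99 and 1.86 in the mutants. This difference does not depend on the scaling between libraries. It was wider by 0.25 in the mutants, with every mutant above every wild-type library (exact permutation test, two-sided, p = 0.0286, adjusted p = 0.0286 over 3 pairs). With 35 ways to arrange 3 and 4 libraries, 0.0286 is the smallest p the design allows, and 0.0571 where each tail is doubled.

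Among proton exchangers, Slc9c1 (ENSMUSG00000033210, chr16:45355672-45427364, plus strand, 28 exons) encodes the sperm-specific sodium-proton exchanger, which carries a voltage sensor and a cyclic nucleotide-binding domain. It stood at 115, 117, 123 and 99.8 CPM in wild-type testes and at 118, 117 and 119 CPM in the mutants. The mutants lay within the wild-type range and closer together, with a log2 fold change of 0.06 (SE 0.06, interval -0.08 to 0.19, FDR 0.439). Its sign turned after rescaling, to -0.08 (interval -0.21 to 0.06, FDR 0.295).

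Slc9b1 (ENSMUSG00000050150, chr3:135053754-135103588, plus strand, 13 exons) encodes NHA1, an exchanger of the same superfamily that is found in the sperm flagellum. Wild-type testes had 152, 158, 156 and 153 CPM and mutants had 124, 132 and 129 CPM. Both groups were tight and well apart, and the log2 fold change was -0.27 (SE 0.04, FDR 1.0e-04), or -0.40 after rescaling (FDR 2.7e-06). The mean in the mutants was 83.1% of the wild-type mean.

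The balance of the 2 exchangers also differed. Slc9c1 minus Slc9b1, on the log2(CPM + 0.1) scale, was -0.40, -0.44, -0.34 and -0.61 in wild-type libraries and -0.07, -0.18 and -0.12 in mutants. The gap was smaller by 0.33 in the mutants without overlap (exact permutation p = 0.0286, adjusted p = 0.0286 over 3 pairs).

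On the deposited scale the pumps showed the largest changes of the 8 genes. Atp1a4 (ENSMUSG00000007107, chr1:172051080-172085981, minus strand, 23 exons) encodes the alpha subunit of the Na,K-ATPase that is specific to male germ cells and needed for sperm motility. Its values were 862, 973, 867 and 1028 CPM in wild-type testes and 677, 661 and 629 CPM in the mutants. Every mutant was below every wild-type library, and the mutant mean was 70.4% of the wild-type mean. The log2 fold change was -0.50 (SE 0.06, FDR 1.2e-05), and -0.64 after rescaling (FDR 2.6e-06).

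Atp2b4 (ENSMUSG00000026463, chr1:133627195-133728923, minus strand, 21 exons) encodes PMCA4, the main calcium pump of the sperm plasma membrane, which is also made in many somatic cells. It stood at 141, 125, 149.5 and 139 CPM in wild-type testes and at 168, 173 and 169.5 CPM in the mutants. The mutants were all above the wild type, with a log2 fold change of 0.30 (SE 0.06, FDR 4.4e-04). After rescaling the change was 0.17 (interval 0.04 to 0.29) and its FDR of 0.0214 missed the threshold. Atp2b4 was the only 1 of the 8 genes called higher on the deposited scale.

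Between these pumps, Atp1a4 exceeded Atp2b4 by 2.61, 2.96, 2.53 and 2.89 on the log2(CPM + 0.1) scale in wild-type libraries and by 2.01, 1.93 and 1.89 in mutants. The difference was 0.80 smaller in the mutants (-0.80, exact permutation p = 0.0286, adjusted p = 0.0286 over 3 pairs). It lay between -0.87 and -0.73 when each library was left out in turn. Every mutant was below the wild type for Atp1a4 and above it for Atp2b4, so the groups had to separate here. This p is therefore no separate evidence beside the changes of the single genes.

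**Figure D2:**
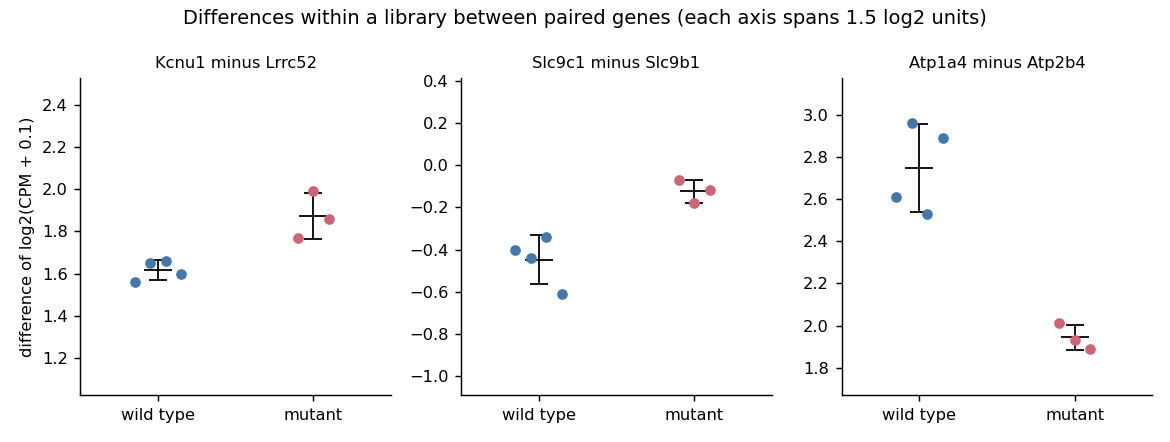
Difference of log2(CPM + 0.1) between the genes of each pair within a library (vertical axes, each spanning the same range of log2 units) for wild-type (blue, n = 4) and mutant (red, n = 3) testes, with mean and SD in black. Kcnu1 minus Lrrc52 goes from 1.62 to 1.87, Slc9c1 minus Slc9b1 from -0.45 to -0.12 and Atp1a4 minus Atp2b4 from 2.75 to 1.94, with no overlap in any pair.

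Slc26a8 (ENSMUSG00000036196, chr17:28856752-28910244, minus strand, 20 exons) encodes the testis anion transporter TAT1, found at the sperm annulus, which works together with the chloride channel CFTR. It was read at 169, 172, 167 and 175 CPM in wild-type testes and at 154, 152 and 159.9 CPM in the mutants. The mutants were lower without overlap, but the change was small (log2 fold change -0.14, SE 0.04, interval -0.22 to -0.05) and its FDR of 0.0101 lay just above the threshold. It passed without wild-type library 3 (FDR 0.00996) and after rescaling (-0.27, FDR 1.0e-04). Slc26a8 could not be set against Slc26a3, its planned partner.

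Tmem249 (ENSMUSG00000116376, chr15:76417410-76419220, minus strand, 6 exons) encodes a small membrane protein that associates with the CatSper complex. Its wild-type values of 75.1, 67.6, 57.2 and 59.1 CPM spanned the mutant values of 68.0, 61.5 and 71.4 CPM. The log2 fold change was 0.05 (SE 0.09, interval -0.13 to 0.24, FDR 0.607), and -0.08 after rescaling (FDR 0.438).

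**Figure D3:**
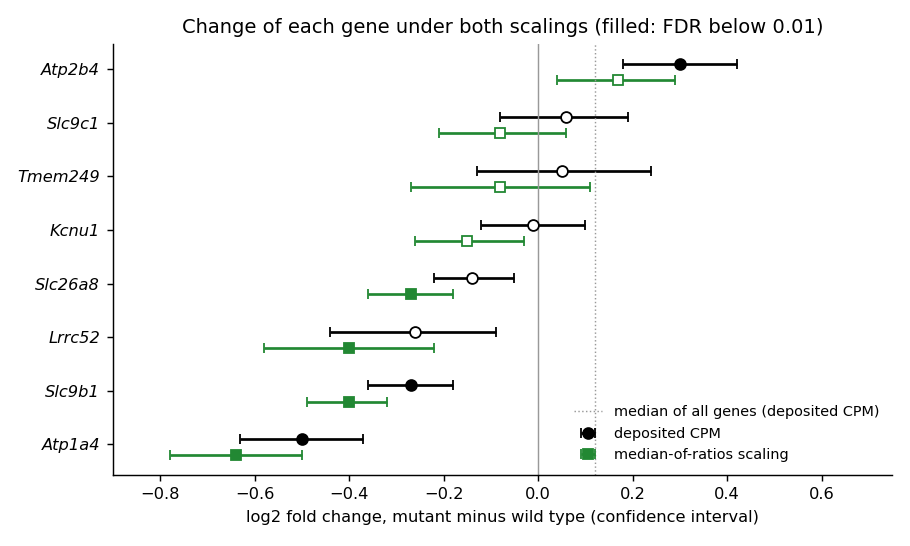
Log2 fold change of each gene, mutant minus wild type, with its 95% limma interval, on deposited CPM (black circles) and after median-of-ratios scaling (green squares). Filled symbols passed an FDR below 0.01, the dotted line is the median of all genes on deposited CPM (0.12), and Atp1a4 and Slc9b1 are filled on both scales.

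The transcript levels themselves were compared per kilobase of exon, as CPM per kilobase. In wild-type testes Atp1a4 was the most abundant at 254 ± 22.3 (SD, n = 4), followed by Tmem249 at 62.4 ± 7.93, Slc9b1 at 39.8 ± 0.759, Slc26a8 at 28.2 ± 0.581, Slc9c1 at 28.0 ± 2.45, Kcnu1 at 25.0 ± 0.934, Lrrc52 at 12.0 ± 0.411 and Atp2b4 at 11.2 ± 0.830. The ranges of Slc26a8 and Slc9c1, of Slc9c1 and Kcnu1, and of Lrrc52 and Atp2b4 overlapped, so these neighbours were not ordered beyond their spread. In mutant testes Atp2b4, at 13.6 to 14.0, stood above Lrrc52, at 8.67 to 11.0, and Slc9c1, at 28.9 to 29.2, stood above Slc26a8, at 25.1 to 26.5. With the length of the canonical transcript alone, the means of Slc9b1 (67.6) and Tmem249 (67.2) changed places in wild-type testes, but their ranges overlapped.

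Several of these genes belong to families whose other members serve mostly somatic or other germ cells. The share of 4 genes in their families, summed per kilobase, was computed after the values above were seen. Atp2b4 made up 82.8%, 83.3%, 85.2% and 83.8% of the PMCA transcripts (Atp2b1 to Atp2b4) in wild-type testes and 79.8%, 80.9% and 80.6% in the mutants. Atp2b4 itself rose on the deposited scale, but its share was lower in all 3 mutants than in any wild-type library (mutant minus wild type, -3.33 percentage points, or -5.51 with canonical transcript lengths).

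Slc9b1 made up 41.0%, 42.1%, 41.8% and 42.2% of the transcripts of 9 SLC9 genes in wild-type testes and 33.6% to 35.4% in the 3 mutants. The shares of Atp2b4 and Slc9b1 did not overlap between the groups (exact permutation p = 0.0286 each). Neither passed 0.05 once adjusted over 4 shares (adjusted p = 0.0571). As 0.0286 is the smallest p the design allows, a share could pass only if most of the 4 reached it. Slc9c1 held 29.3% ± 2.15 and 30.5% ± 0.776 of the same 9 genes (exact permutation p = 0.571). Slc26a8 held 68.2% ± 1.58 and 67.2% ± 0.908 of 6 SLC26 genes (exact permutation p = 0.371).

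**Figure D4:**
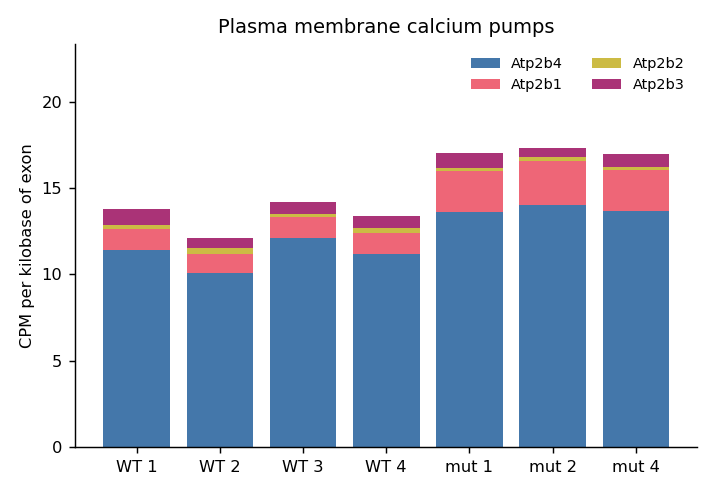
CPM per kilobase of exon (stacked bars from 0) of the 4 plasma membrane calcium pumps in each wild-type (WT) and mutant (mut) library. Both Atp2b4 and Atp2b1 are taller in the 3 mutants, and Atp2b4 makes up 83.8% of the wild-type and 80.5% of the mutant total on average.

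The relatives of the 8 genes were described from fixed lists. Their counts are read against the 14.2% of all genes called lower and the 36.3% called higher on the deposited scale. After rescaling these shares were 25.1% and 27.0%. Of 7 tested beta subunits and FXYD regulators of the Na,K-ATPase, 5 were called higher and 1 lower, with a median log2 fold change of 0.64. The largest change was in Atp1b2, a beta subunit best known from glia, at 18.3 ± 1.26 and 67.6 ± 5.73 CPM (log2 fold change 1.88, FDR 1.3e-09), and the smallest called was in Atp1b3, another beta subunit, at 349 ± 5.97 and 302 ± 4.89 CPM (-0.21, FDR 2.4e-04). Atp1b3 was the only 1 of these 7 called lower, as Atp1a4 was. The counts were 5 higher and 1 lower after rescaling as well.

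Of 7 SLC9 relatives, 5 were called higher and 0 lower on deposited CPM, and 3 and 0 after rescaling. The change was largest in Slc9a9, an endosomal exchanger (1.36, FDR 1.9e-05), and the smallest called was in Slc9a8, a Golgi exchanger (0.24, FDR 5.7e-04). Of 7 calcium pump relatives only Atp2b1, the widely expressed PMCA1, was called, at 19.7 ± 1.09 and 40.5 ± 2.13 CPM (1.04, FDR 5.3e-08). Of 3 relatives of the potassium channel and its partner, Kcnma1 (0.47, FDR 0.003) and Kcnt1 (1.37, FDR 1.7e-06), which encode other potassium channels of the Slo family, were called higher. Only Kcnt1 kept its call after rescaling.

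Among 6 SLC26 relatives with Cftr, 2 were called lower and 4 higher, and 2 and 2 after rescaling. Slc26a10 showed the largest change of this list, from 24.5 ± 1.89 to 7.43 ± 0.767 CPM (log2 fold change -1.71, FDR 1.4e-08). Cftr, the partner channel of Slc26a8, had the smallest called change, from 38.4 ± 2.50 to 30.3 ± 2.38 CPM (-0.34, FDR 9.7e-04). Of 10 genes of bicarbonate entry and cAMP signalling, 4 were called lower and 3 higher. The largest change in either direction was in Slc4a3, an anion exchanger (1.88, FDR 1.3e-09). The smallest called was in Slc4a8, a sodium-bicarbonate transporter (-0.17, FDR 0.00627), so the other called falls were larger than this. The median of this list was -0.09, beside 0.12 for all genes.

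The CatSper complex was the nearest functional comparison. Of its 15 tested genes, 11 were called lower and 0 higher, against 14.2% and 36.3% of all genes. Their median log2 fold change was -0.26, and 14 were called lower after rescaling, against 25.1% of all genes. The largest change was in Catspere1 (-0.64, FDR 1.8e-05) and the smallest called was in Catsperz (-0.19, FDR 0.00174). Each of the 8 genes was then set against the mean log2(CPM + 0.1) of these 15 in the same library. In the mutants Atp2b4 was higher relative to them by 0.56, Slc9c1 by 0.32, Kcnu1 by 0.25 and Slc26a8 by 0.13, without overlap. Tmem249 was higher by 0.32 with overlapping groups. Lrrc52 and Slc9b1 differed by 0.00 and -0.01, and Atp1a4 was lower by 0.24 (-0.24). With 8 tests the smallest adjusted p was 0.0762 (exact permutation test), so 0 of the 8 passed 0.05. Atp2b4, Kcnu1 and Slc26a8 had an unadjusted exact p of 0.0286, the smallest the design allows. With that limit a gene could pass 0.05 after adjustment only if most of the 8 reached 0.0286.

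Cell type markers also differed between the groups. Counts on the deposited scale are read against the 14.2% of all genes called lower and the 36.3% called higher, and counts after rescaling against 25.1% and 27.0%. Of 17 spermatid markers, 15 were called lower and 0 higher (16 and 0 after rescaling), and their summed level was 22503 to 23801 CPM in wild-type and 14539 to 16675 CPM in mutant testes. Of 10 spermatocyte markers 1 was called lower and 1 higher, with sums of 1365 to 1433 and 1268 to 1375 CPM, but after rescaling 5 were called lower and 0 higher. All 9 Sertoli cell markers were called higher (7 after rescaling), with sums of 1498 to 1621 and 3109 to 3289 CPM. So were 7 of 8 Leydig cell markers (1044 to 1243 and 4413 to 4582 CPM) and all 10 macrophage markers (95.8 to 107 and 296 to 339 CPM), with the same counts of 7 and 10 after rescaling. All these sums weigh the most abundant markers of a list most, so a sum does not describe each marker in it. Of 9 spermatogonia markers 5 were called higher and 0 lower, and 1 and 0 after rescaling. Of 5 endothelial markers 2 were called higher and 0 lower, and 2 and 1 after rescaling. Peritubular myoid markers had 1 of 5 called in each direction on both scales. From RNA of whole testis alone, fewer cells of a type and less RNA per cell cannot be told apart. By flow cytometry of older mice, the paper reported fewer germ cells and a lower proportion of haploid cells in mutant testes. It described the differences in these spermatid markers as subtle. The part of the marker shifts in the changes of the ion transport genes was not tested.

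Set against the mean of the 17 spermatid markers in the same library, Atp1a4 differed by -0.05 with overlapping groups (exact permutation p = 0.486, adjusted p = 0.486 over 8 genes). The other 7 genes had higher means relative to these markers, from Slc9b1 by 0.18 and Lrrc52 by 0.19 to Atp2b4 by 0.75. The groups overlapped for Slc9b1 and Lrrc52 as well. The smallest adjusted p was 0.0571 (exact permutation test), so 0 of the 8 passed 0.05. Kcnu1, Slc9c1, Atp2b4 and Slc26a8 had an unadjusted exact p of 0.0286. Here too a gene could pass 0.05 after adjustment only if most of the 8 reached 0.0286.

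**Figure D5:**
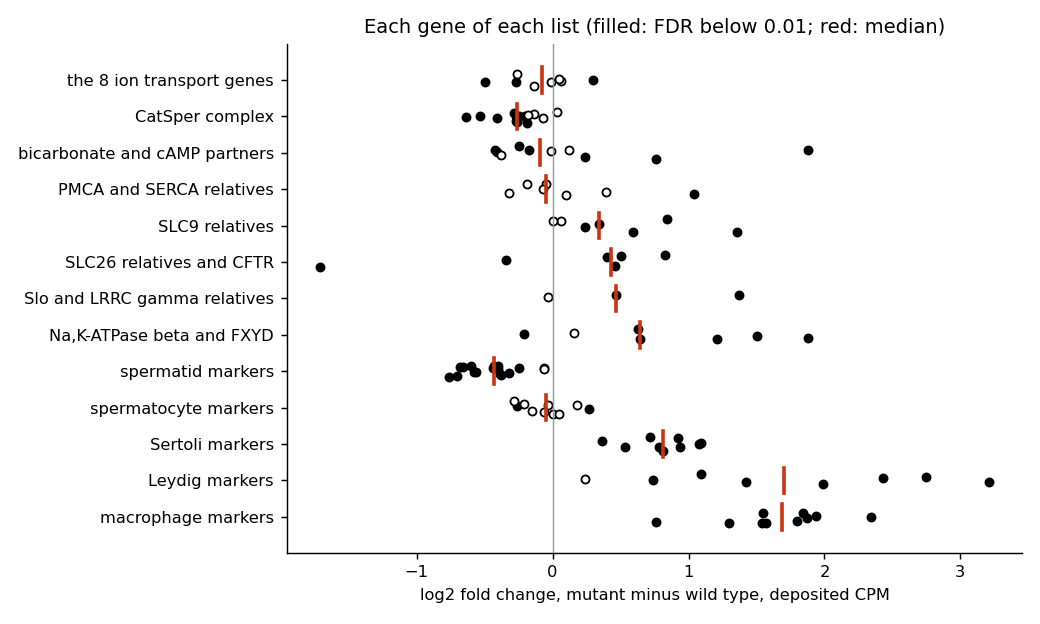
Log2 fold change on deposited CPM, mutant minus wild type (horizontal axis), of each tested gene of each list (rows), filled where the FDR was below 0.01, with the list median in red. The 8 ion transport genes have a median of -0.07, the CatSper complex -0.26, the spermatid markers -0.43 and the Na,K-ATPase beta subunits and FXYD regulators 0.64.

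The gene most like each of the 8 across the 7 libraries, by Pearson's r of log2(CPM + 0.1), is given as a description. Because the libraries fall into 2 genotypes, r is high for any genes that differ between them. It was 0.996 for Atp1a4 with Fbxw10, 0.999 for Slc9b1 with A630010A05Rik, 0.996 for Atp2b4 with Tmem132a, 0.993 for Lrrc52 with Slc8a2, which encodes a sodium-calcium exchanger, and 0.990 for Slc26a8 with 4930532M18Rik. It was 0.958 for Kcnu1 with Tmem45b, 0.985 for Slc9c1 with the pseudogene Gm14176 and 0.974 for Tmem249 with Rfx1. Kcnu1, Slc9c1 and Tmem249 were called on neither scale. An r picked as the highest among all tested genes can be high over so few libraries without a difference between the genotypes. Above 0.95 there were 551 genes for Atp1a4 and 2 for Kcnu1.

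The annotation places other genes across some of these loci: the long noncoding RNAs Gm63688 at Kcnu1, Gm34207 at Lrrc52 and Gm37950, Gm70728 and Gm70731 at Atp1a4, and Mir6903 and Gm37368 at Atp2b4. None had a row in the table. Whether reads were counted by strand is not given in the sources used here, so reads from these overlaps cannot be told apart from those of the 4 genes. Hvcn1 overlaps Tctn1 on the other strand, and Tctn1 does not measure it.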

How the data were processed

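RNA was extracted from whole testis with TRIzol, treated with DNase, made into TruSeq libraries and sequenced as paired-end reads. Per the labels and the methods, the authors trimmed reads with Trimmomatic, aligned them with Subread to GRCm39, counted them with featureCounts, removed genes with few reads and deposited CPM, whose columns each sum to 1000000. The annotation release was not given in the sources used here. The authors called genes with edgeR and DESeq2, and those calls were not used.

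CPM were tested as log2(CPM + 0.1) by limma (version 3.58.1, under R 4.3.3), with a trended empirical Bayes variance after a filter that kept genes reaching 2.2 CPM in 2 libraries of either group, with Benjamini-Hochberg adjustment and a call at an FDR below 0.01. A fold change on this scale understates the change of low genes. Single values were compared with exact two-sided permutation tests. The fit was checked on simulated data. Ensembl identifiers were matched to GENCODE symbols for 99.5% of the genes, and promoters were read from GRCm39. Errors are SD over libraries, which are separate mice. Alternatives were other pseudocounts, filters and scalings, a replicate block, and each library left out.

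The genes, lists and tests were chosen with earlier results of these data known. Genes named in the text were the 10 listed genes, of each relatives list the called genes with the largest and smallest change (all where fewer than 4 were called), the gene with the highest r to each of the 8 that had a row, Iqch, and annotated genes overlapping any of the 10. Exceptions are marked. Some relatives of the Na,K-ATPase are not reported here, and the list of its relatives was limited to beta subunits and FXYD regulators.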

Additional observations from a re-analysis of the deposited data

How the results depend on the processing

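Of 357 alternative values, 342 kept their direction and their side of the threshold or stayed within the spread, and 0 reversed a called direction. For pairs, comparisons with lists and shares, leaving out a library gave no p-value, so these values show direction and size alone. A count of called genes could be among the 342 though the genes called differed. The scaling mattered most. With median-of-ratios factors 4 genes were called lower and 0 higher, and with TMM factors likewise 4 lower and 0 higher, in place of 2 and 1 on the deposited CPM. Atp2b4 then had an FDR of 0.0214 or 0.0136. Leaving out each library in turn gave 3 to 4 called genes, with 2 to 3 lower and 1 to 1 higher. Lrrc52 was gained without mutant 1 and Slc26a8 without wild-type library 3. Slc26a8 also passed with a pseudocount of 1 (FDR 0.00983) or a minimum of 5 CPM (FDR 0.00966). The replicate block called 3 genes, 2 lower and 1 higher, the same as without it. The numbers of the libraries do not pair them, since the deviations of same-numbered libraries correlated at 0.026, 0.009 and -0.098. The share of Atp2b4 among PMCA genes differed by -5.51 percentage points with canonical transcript lengths, an alternative chosen after seeing the data, in place of -3.33. The planned edgeR and DESeq2 alternatives were not run: library totals were estimated from the steps between CPM values and used for depth and counting error, but the filtered table holds few of the low values needed to establish whole reads across genes. Counting error was at most 3.78% in any library for the 8 genes. For each gene the error used was that of the library with the fewest reads in either group. It was below the coefficient of variation of both groups for all but Lrrc52 and Slc9c1. For Slc9c1 it was 1.63% against 0.663% in mutants. For Lrrc52 the 3.78% came from mutant 2, so it is not the error behind the 3.42% of wild type. For Atp2b4 the 1.53% came from wild-type library 2, so it is not the error behind the 1.65% of the mutants.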
